A study of Mus musculus with 6 samples.

Results

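The Zfp genes are the mouse genes whose symbol is Zfp and a number, and most of them encode C2H2 zinc finger proteins, each with a row of short zinc-binding fingers that read DNA. The array carried 647 probe sets for 332 such genes, after Zfp36 and its paralogues, which bind RNA, were left out. Of these, 260 genes had a probe set called Present on at least 3 of the 6 arrays, and the brightest such probe set stood for its gene. They were 260 of 11899 genes tested. The members were chosen by symbol, detection call and signal brightness over all 6 arrays, not by the difference between genotypes. The family was nevertheless picked with earlier results of these arrays known, so counts over it are a description and carry no test. Of the other 72 genes, 41 were Present on no array, 23 on 1 and 8 on 2.

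The samples were 3 arrays of Spdef -/- and 3 of Spdef +/+ conjunctival epithelium from mice of 8 weeks on a C57BL/6 background. The protein Spdef is a transcription factor with an ETS domain, known from goblet cells. Each sample pooled 1 eye of a male with 1 eye of a female, and laser capture took the 40% of the epithelium closest to the deepest point of the fornix, the fold between lid and eye. The sources used here do not give how the Spdef allele was made, nor whether the Spdef probe set lies in the part removed. Signals are linear dChip units. Folds and differences are of mean log2 signals (signals under 1 set to 1), Spdef -/- minus Spdef +/+, with the standard error (SE) from limma. A gene was called where limma's p, Benjamini-Hochberg adjusted over all 11899 genes, was under 0.05. The p-values measure the spread between these pooled samples.

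Many zinc finger proteins of this family start with a KRAB domain, which recruits the corepressor Trim28 and, through it, the histone methyltransferase Setdb1. Their fingers then direct this silencing to particular sites, often in transposable elements. The family has grown by local duplication, so its genes often stand side by side in the genome and near-identical copies can share probes. Other members have no such domain and act as activators, in splicing or in mitosis.

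Spdef read 1, 3.62 and 2.94 on the Spdef -/- arrays, all Absent, against 801, 689 and 587 on the Spdef +/+ arrays. Present calls numbered 23290 to 23370 in Spdef -/- and 24589 to 24833 in Spdef +/+, with a mean difference of -1352 (two-sided exact permutation p = 0.1, the lowest value possible with 3 arrays a group). The 3' minus 5' log2 signal of the Gapdh and beta-actin controls was 1.51 ± 0.25 in Spdef -/- and 1.62 ± 0.20 in Spdef +/+ (SD, n = 3 each, two-sided exact permutation p = 0.5). The keratin and other markers of conjunctival epithelium were all tested (2 fell and 3 rose), with summed signals of 75730 to 85950 in Spdef -/- and 70630 to 75370 in Spdef +/+. Of 8 tested goblet cell markers all 8 fell, with summed signals of 3055 to 4777 in Spdef -/- and 34440 to 41380 in Spdef +/+, and Muc5ac and Spdef were Absent on every Spdef -/- array. All 3 tested neutrophil markers rose, with sums of 3491 to 8722 in Spdef -/- and 178 to 232 in Spdef +/+, while Cxcr2, Mpo, Elane and Ngp were under the detection filter. Of 7 stromal markers 4 fell, with sums of 20340 to 22420 in Spdef -/- and 29750 to 45150 in Spdef +/+. Both T and NK cell markers (2 of 4 higher, 1 lower) and B cell markers (2 of 3 higher) had mixed or raised calls, with sums of 228 to 312 and 636 to 1472 in Spdef -/- and 317 to 372.5 and 187 to 531 in Spdef +/+. The part these cells have in the values of the Zfp genes was not tested, and in captured tissue fewer cells of a type and less RNA per cell cannot be told apart.

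Most Zfp genes had lower signals without Spdef. Of the 260 tested, 100 were called lower, beside 24.0 percent of all tested genes, and 10 were called higher, beside 15.8 percent. That is 38.5% of the family called lower and 3.85% called higher. The median log2 difference was -0.30 over the family and -0.06 over all tested genes, and 211 of the 260 lay below 0, beside 56.2 percent of all tested genes. The called falls were small in size, with a median of 1.45-fold and a range of 1.23-fold to 4.47-fold, and 11 of the 100 were at least 2-fold. The rises ran from 0.32 to 0.81 on the log2 scale, so none reached 2-fold. All 100 called falls and all 10 called rises had groups that did not overlap. The calls rest on the same values, so this is no separate evidence for them. Over the family 129 genes had every Spdef -/- array below every Spdef +/+ array, beside 32.7 percent of all tested genes, and 14 had every Spdef -/- array above, beside 22.6 percent.

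These counts depended on the array left out. Without Spdef +/+ replicate 1 the fit called 51 members lower (19.6%), beside 15.5 percent of all genes. Without any other single array it called 71 to 99 lower (27.3% to 38.1%), beside 17.5 to 23.0 percent of all genes. Of the 100, 46 were called lower under every omission of 1 array, and 5 of the 10 were called higher (Zfp131, Zfp326, Zfp367, Zfp668 and Zfp710). No such count over all tested genes is given here, so these counts describe the members alone. A member could enter the tested set through calls in 1 genotype. Of 15 members Present on exactly 3 arrays, 5 had all 3 calls in Spdef +/+ and none had all 3 in Spdef -/-. Of the 260 members, 44 had more Present calls in Spdef +/+, 6 had more in Spdef -/- and 210 had the same number in both. The same count over all tested genes is not given here. Among the 207 members Present on all 6 arrays, 79 were called lower and 9 higher, with a median of -0.26. When only probe sets Present on all 6 arrays were fitted, 84 of 210 Zfp genes were called lower, beside 25.5 percent of all genes in that fit, and 9 higher, beside 16.8 percent. Brightest among the members Present on exactly 3 arrays were Zfp398, at 129, 146 and 185 in Spdef -/- and 149.8, 153 and 152 in Spdef +/+, and Zfp493, at 83.9, 108 and 126.5 against 81.2, 75.2 and 88.1. Brightest among those Present on 2 arrays, and so left out, were Zfp536, at 76.4, 70.8 and 59.4 in Spdef -/- and 117, 101 and 153 in Spdef +/+, and Zfp438, at 78.3, 112 and 46.8 against 92.6, 88.6 and 98.6. Zfp398 also had dimmer tested probe sets, and with probe sets tested singly 1 of these was called lower (-0.65, limma adjusted p = 0.0099). The rest of them differed by -0.40 to -0.19 on the log2 scale and were not called.

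**Figure D1:**
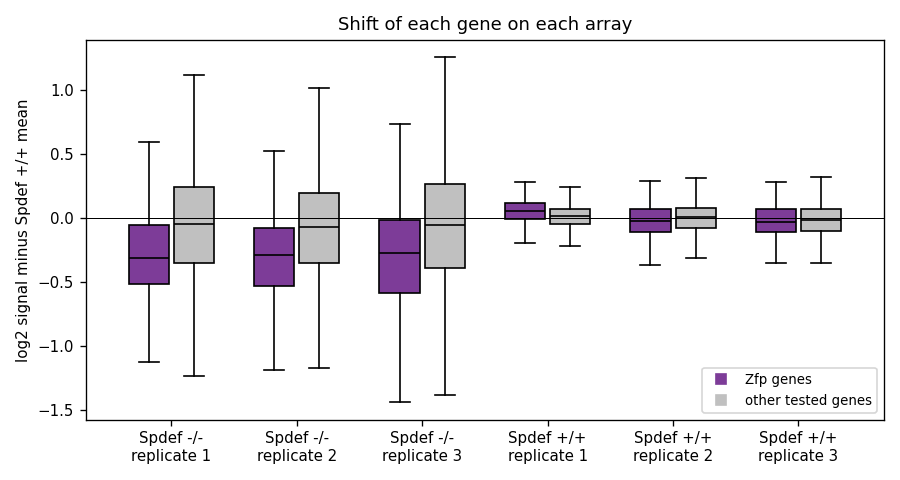
Boxes show, for each array, the log2 signal of each gene minus its mean over the 3 Spdef +/+ arrays, for the 260 Zfp genes and for the other tested genes; the line is the median, the box the middle 50% and whiskers reach 1.5 box lengths and points beyond them are not drawn. The Zfp medians were -0.31, -0.28 and -0.27 on the Spdef -/- arrays.

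The shift was present on each Spdef -/- array. The median Zfp gene stood at -0.31, -0.28 and -0.27 on Spdef -/- replicates 1, 2 and 3 relative to its Spdef +/+ mean, and at 0.06, -0.02 and -0.03 on the Spdef +/+ arrays. The median of the other tested genes stood at -0.05, -0.07 and -0.06 on the Spdef -/- arrays, and at 0.02, 0.01 and -0.02 on the Spdef +/+ arrays. The 3 Spdef -/- arrays were thus close to each other, and among the Spdef +/+ arrays, which are part of the mean they are set against, replicate 1 stood highest. Detection calls moved in the same direction. Of the 647 Zfp probe sets, 384, 382 and 376 were Present on the Spdef -/- arrays and 425, 429 and 425 on the Spdef +/+ arrays. As a share that is 58.8% ± 0.64 in Spdef -/- and 65.9% ± 0.36 in Spdef +/+, while the other named probe sets had 56.1% ± 0.47 in Spdef -/- and 58.9% ± 0.32 in Spdef +/+ (SD, n = 3 each).

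Zfp signals were mostly dim. When the tested genes were divided into 4 bands of equal size by mean log2 signal over all arrays, 115 of the 260 fell in the dimmest band (signals of 7.31 to 137) and 14 in the brightest (over 886). In the dimmest band 53 of 115 Zfp genes were called lower (46.1%), beside 23.5 percent of the other genes there, and 2 were called higher, beside 17.1 percent. In the second band 32 of 87 were called lower (36.8%), beside 27.4 percent, and 2 higher, beside 15.3 percent. In the third band the counts were 12 lower of 44 (27.3%), beside 23.3 percent, and 5 higher, beside 15.9 percent. In the brightest band they were 3 lower of 14 (21.4%), beside 20.5 percent, and 1 higher, beside 15.9 percent. The median differences of Zfp genes from the dimmest to the brightest band were -0.44, -0.27, -0.19 and -0.015, and those of the other genes were -0.08, -0.08, -0.05 and -0.02. The gap between Zfp genes and other genes of like signal was widest in the dimmest band, and in the brightest both medians lay near 0.

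**Figure D2:**
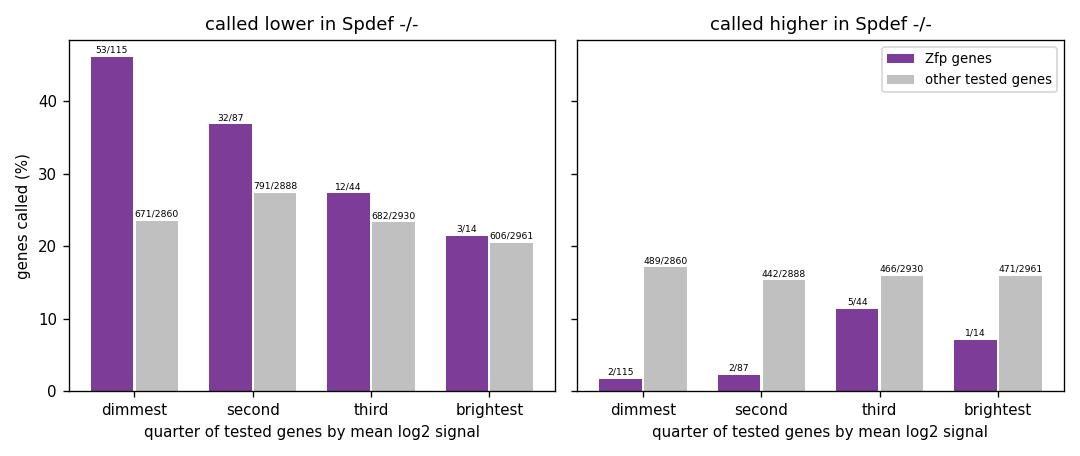
Bars give the percentage of Zfp genes and of other tested genes called lower (left) or higher (right) in Spdef -/-, in 4 bands of mean log2 signal, with called and tested genes above each bar. In the dimmest band 53 of 115 Zfp genes were called lower, and in the brightest 3 of 14.

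**Figure D3:**
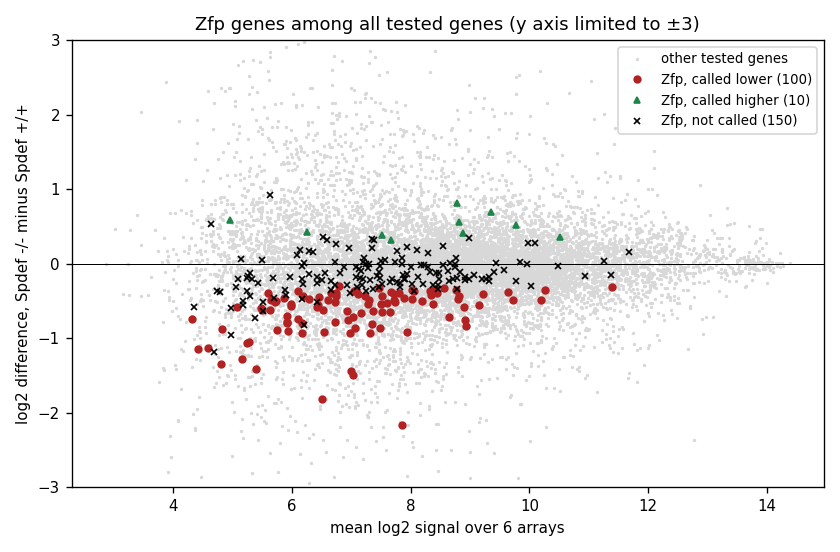
Each point is a tested gene, with its mean log2 signal over 6 arrays on the x axis and its log2 difference, Spdef -/- minus Spdef +/+, on the y axis, limited to values within 3 of 0. The 100 Zfp genes called lower lie mostly at the dim end, between -0.29 and -2.16.

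The members with the largest called falls are little characterised zinc finger genes. Zfp40 read 47.9, 48.9 and 49.4 in Spdef -/- and 174, 207 and 139.7 in Spdef +/+, a log2 difference of -1.81 ± 0.14 (SE, limma adjusted p = 0.000458). All 6 arrays called it Present, the Spdef -/- values were almost equal and every one lay far below the Spdef +/+ values. Zfp612 read 73.8, 77.6 and 82.0 in Spdef -/- and 216, 239 and 179.8 in Spdef +/+ (difference -1.44 ± 0.12, SE, limma adjusted p = 0.000534), with the same wide gap. A second Zfp40 probe set was lower by 1.23 on the log2 scale but did not pass (limma adjusted p = 0.121).

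Zfp945 had the largest fall of the family on its brightest probe set. It read 75.1, 223 and 78.1 in Spdef -/- and 484, 559 and 434 in Spdef +/+ (difference -2.16 ± 0.42, SE, limma adjusted p = 0.00814), and 1 of the Spdef -/- arrays called it Present. Spdef -/- replicate 2 was well above the other Spdef -/- arrays. The other probe sets of Zfp945 went the opposite way, and one of them passed when probe sets were tested singly (difference 0.70, limma adjusted p = 0.0360). Its direction thus depended on the probe set. Of the 92 members with more than 1 tested probe set, 60 had all of them on the same side of 0, and Zfp945 and Zfp91 alone had probe sets called in both directions.

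The remaining 7 of the 10 largest falls were Zfp994, Zfp942, Zfp874b, Zfp938, Zfp975, Zfp708 and Zfp775, with log2 differences of -1.49 to -1.06. All 7 were Present on the 3 Spdef +/+ arrays. Of the 3 Spdef -/- arrays, Zfp975 and Zfp708 were Present on 1, Zfp942, Zfp874b and Zfp775 on 2, and Zfp994 and Zfp938 on 3. Zfp994 read 69.9, 118 and 57.8 in Spdef -/- against 251, 217 and 194 in Spdef +/+. Zfp942 read 19.1, 35.6 and 25.4 against 72.9, 73.2 and 61.3 in Spdef +/+. In each the Spdef -/- replicate 2 was the highest of its group and still under every Spdef +/+ array. The dimmer Zfp708 lost its call without Spdef +/+ replicate 1 (limma adjusted p = 0.0570) or replicate 3 (limma adjusted p = 0.0551), and Zfp874b without Spdef +/+ replicate 1 (limma adjusted p = 0.0509). Zfp975 was measured by a probe set of the kind Affymetrix marks as able to bind related sequences. Of 30 members on such probe sets 11 were called lower (36.7%) and none higher. Of the 230 others 89 were called lower (38.7%) and 10 higher (4.35%), beside 24.0 and 15.8 percent of all tested genes.

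**Figure D4:**
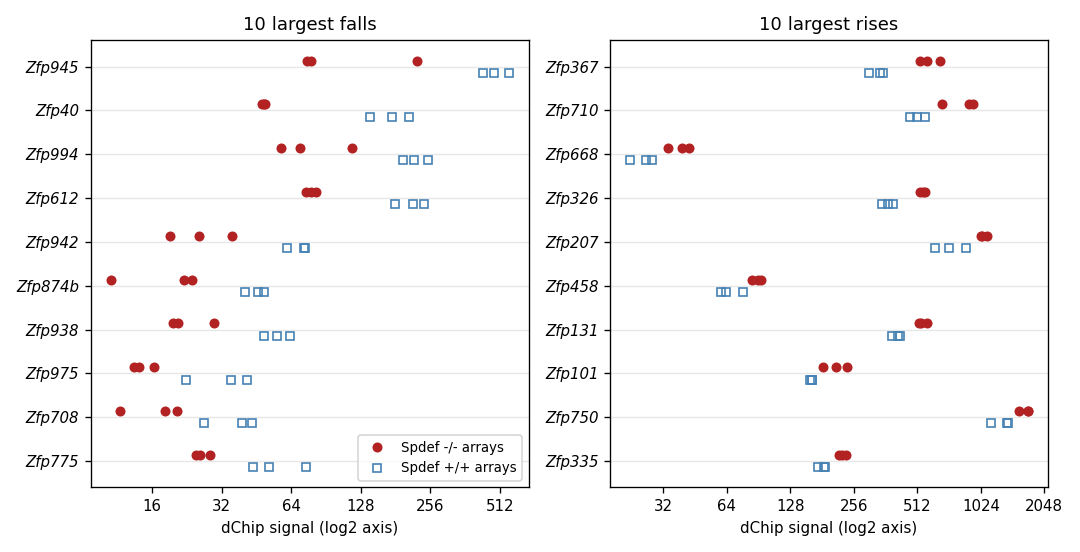
Points are the dChip signals (log2 axis) of the 10 Zfp genes with the largest called falls (left) and rises (right), filled circles for Spdef -/- and open squares for Spdef +/+ arrays. The groups do not overlap for any of the 20, as the rule for naming them required.

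The 10 members that rose include genes with roles outside KRAB silencing. Zfp367, the largest rise, read 528, 569 and 656 in Spdef -/- and 303, 354 and 339 in Spdef +/+ (difference 0.81 ± 0.11, SE, limma adjusted p = 0.00246). Zfp326, part of a complex that in human cells couples transcript elongation to splicing, read 559, 529 and 544 in Spdef -/- and 372, 391.7 and 348 in Spdef +/+ (difference 0.56 ± 0.08, SE, limma adjusted p = 0.00285). In both genes each group was tight relative to the gap. Zfp710 read 899.6, 673 and 939 in Spdef -/- and 508, 556 and 474 in Spdef +/+. Zfp131, of the BTB domain zinc fingers, read 520.3, 533 and 571 in Spdef -/- and 413, 422 and 387 in Spdef +/+. All 4 remained called without any single array. A second Zfp710 probe set was not called when probe sets were tested singly (0.19, limma adjusted p = 0.277).

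Of the other 6 risers, 5 lost their call without at least 1 array. Zfp207, which in human cells binds the checkpoint protein Bub3 and helps spindle assembly, read 1089.9, 1026 and 1037 in Spdef -/- and 723, 619 and 869.6 in Spdef +/+ (difference 0.53 ± 0.13, SE, limma adjusted p = 0.0209). It missed the threshold without Spdef +/+ replicate 1 (limma adjusted p = 0.0668) or Spdef -/- replicate 1 (limma adjusted p = 0.0619), and its 5 other tested probe sets were not called. Zfp750, a regulator of terminal differentiation in human epidermis, read 1707, 1714 and 1549.5 in Spdef -/- and 1359, 1140.2 and 1378 in Spdef +/+ (difference 0.36 ± 0.10, SE, limma adjusted p = 0.0322). It lost the call without Spdef -/- replicate 1 or 2 (limma adjusted p = 0.0899 and 0.0892), or without Spdef +/+ replicate 1 or 2 (limma adjusted p = 0.0657 and 0.0821). Zfp335, needed by dividing neural progenitors, rose by 0.32 on the log2 scale and lost its call without any of 3 arrays, Spdef -/- replicate 1, Spdef +/+ replicate 1 or Spdef +/+ replicate 2 (limma adjusted p = 0.0504, 0.0584 and 0.0626). Zfp101, at 0.38, was called with all arrays and held without Spdef -/- replicate 1 alone (limma adjusted p from 0.0527 to 0.0900 in the other 5 omissions). A second Zfp101 probe set was called higher when probe sets were tested singly (0.65, limma adjusted p = 0.0122). Zfp458, at 0.42, lost its call without Spdef -/- replicate 1 or 3 or Spdef +/+ replicate 1 or 3 (limma adjusted p from 0.0524 to 0.0866). Zfp668, whose call held without any single array, is a gene linked to DNA repair in human cells and read 33.8, 39.1 and 42.5 in Spdef -/- and 26.4, 22.2 and 28.3 in Spdef +/+ (difference 0.59 ± 0.13, SE, limma adjusted p = 0.0131).

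Of 18 members chosen for a known role, 16 were tested, and 6 of these were called (37.5%), beside 39.7 percent of all tested genes called in either direction. Besides Zfp750, Zfp207, Zfp131 and Zfp335, which rose, Zfp703 and Zfp148 fell. Zfp703, a corepressor that is an oncogene in human breast cancer, read 911, 982 and 1073 in Spdef -/- and 1517, 1325 and 1325 in Spdef +/+ (difference -0.49 ± 0.10, SE, limma adjusted p = 0.00987). Zfp148, a factor of GC-rich promoters, read 722, 658 and 722 in Spdef -/- and 944, 941 and 855 in Spdef +/+ (difference -0.38 ± 0.08, SE, limma adjusted p = 0.0129). Zfp148 lost its call without Spdef +/+ replicate 1 (limma adjusted p = 0.0571), and its 8 probe sets ran from -0.76 to 0.15 on the log2 scale.

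The other 10 were not called. Zfp217, a corepressor subunit, read 1247, 1136 and 1235 in Spdef -/- and 916, 1118 and 942 in Spdef +/+, with groups that did not overlap (difference 0.29 ± 0.10, SE, limma adjusted p = 0.0661). Zfp568, which in mouse embryos silences a placental Igf2 transcript, read 511, 522 and 686 in Spdef -/- and 455, 461 and 424 in Spdef +/+ (difference 0.35 ± 0.13, SE, limma adjusted p = 0.0740). Zfp809, which silences retroviral DNA in mouse stem cells, read 355, 408 and 412 in Spdef -/- and 473, 461 and 419.6 in Spdef +/+ (difference -0.21 ± 0.10, SE, limma adjusted p = 0.131). Zfp281, known from mouse stem cells, differed by -0.20 ± 0.09 (SE, limma adjusted p = 0.113) and Zfp143, an activator of small nuclear RNA genes, by 0.32 ± 0.16 (SE, limma adjusted p = 0.158). Zfp521 had a wide spread, at 75.3, 69.4 and 32.5 in Spdef -/- and 73.2, 78.8 and 163 in Spdef +/+. Zfp638, Zfp106, Zfp91 and Zfp384 differed by -0.21 to 0.01 on the log2 scale. Zfp106 and Zfp91 each had another probe set that was called higher when tested singly (0.69 and 0.42, limma adjusted p = 0.00205 and 0.0286), and Zfp521 had another that was called lower (-0.70, limma adjusted p = 0.0457). Zfp423 and Zfp57 were not among the tested genes.

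The members were also divided by where they stand in the genome. Of the 260, 131 had another Zfp gene as the next gene on at least 1 side among protein-coding genes and members of GRCm38.p6, and 129 had none. The counts that follow stand beside 24.0 percent lower and 15.8 percent higher over all tested genes. Of the 131, 55 were called lower (42.0%) and 3 higher, with a median of -0.36. Of the 129, 45 were called lower (34.9%) and 7 higher, with a median of -0.24, and the difference between the 2 sets was not tested. The runs themselves were uneven. In the run from Zfp760 to Zfp994, 4 of 5 tested genes were called lower (Zfp229, Zfp942, Zfp943 and Zfp994), with a median of -0.92. Of these, Zfp229 was Absent on all 3 Spdef -/- arrays and entered the tested set through its Spdef +/+ calls alone. In the same run Zfp943 read 189, 211 and 144 in Spdef -/- against 353.5, 362 and 304 in Spdef +/+. In the run from Zfp84 to Zfp146, 7 of 12 were called lower, among them Zfp74 at 45.1, 38.9 and 35.7 in Spdef -/- and 74.96, 74.1 and 71.8 in Spdef +/+. In the run from Zfp677 to Zfp983 none of 7 was called in either direction, with differences of -0.29 to 0.22. In the run from Zfp455 to Zfp273, 3 of 11 were called lower and 1 higher, with differences from -1.34 for Zfp874b to 0.42 for Zfp458. Neighbours can be near-identical copies, and how far their probes bind each other's transcripts was not tested.

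**Figure D5:**
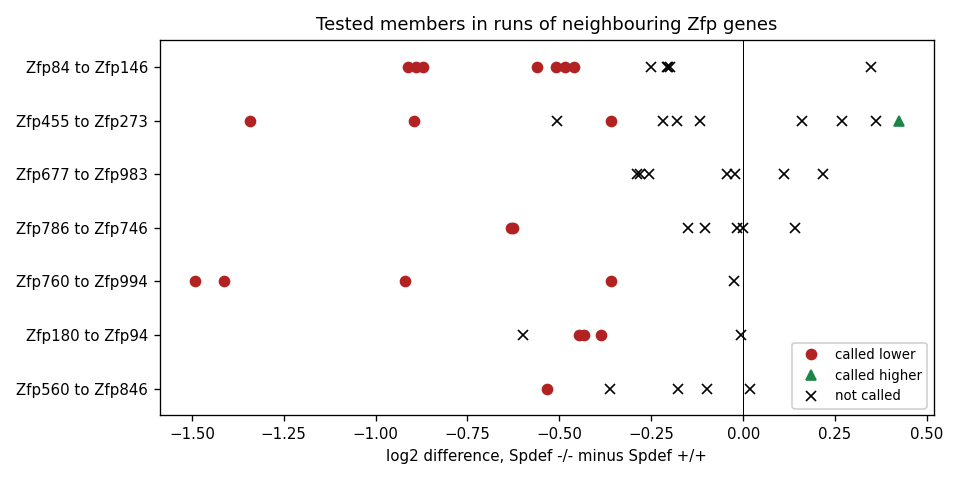
Points are the log2 differences, Spdef -/- minus Spdef +/+, of tested members in the 7 runs of neighbouring Zfp genes that hold at least 5 tested members, each run named by its first and last gene. The run from Zfp760 to Zfp994 has 4 of 5 members called lower, 1 of which (Zfp229) was Present in Spdef +/+ alone, and the run from Zfp677 to Zfp983 none of 7.

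Because Spdef is an ETS factor, the promoters were searched for ETS-type letters. The windows are RefSeq's for GRCm38.p6, 250 bases before to 50 after a gene's start, and the first listed window of a gene was used, found for 213 of the 260 members. The general ETS core CCGGAA and the core CCGGAT, the kind Spdef prefers, were searched on both strands, and a stretch where the 2 cores overlap on opposite strands counts for both. In the stretches of 150 bases before the start printed here, capitals mark a core. They are the largest called fall whose stretch holds the general core, the largest whose stretch holds the Spdef-type core, and 2 others. These are the largest fall whose stretch holds neither core and also no Zfp143-type core (ACTACAA), and the largest rise. Members without a window, or on a chromosome left out of this choice, could not be picked.
Zfp945, chr17:22867135-22867284, minus strand: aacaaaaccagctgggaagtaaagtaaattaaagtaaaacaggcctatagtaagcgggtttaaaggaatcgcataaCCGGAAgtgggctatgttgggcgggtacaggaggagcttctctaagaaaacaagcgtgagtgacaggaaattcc
Zfp784, chr7:5038447-5038596, minus strand: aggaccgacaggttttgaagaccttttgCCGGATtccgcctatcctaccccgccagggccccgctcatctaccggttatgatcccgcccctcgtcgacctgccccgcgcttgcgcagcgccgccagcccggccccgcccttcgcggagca
Zfp975, chr7:42692719-42692868, minus strand: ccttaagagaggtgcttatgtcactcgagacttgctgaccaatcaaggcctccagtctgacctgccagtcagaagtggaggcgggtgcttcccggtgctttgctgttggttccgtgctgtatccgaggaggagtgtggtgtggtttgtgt
Zfp367, chr13:64153200-64153349, minus strand: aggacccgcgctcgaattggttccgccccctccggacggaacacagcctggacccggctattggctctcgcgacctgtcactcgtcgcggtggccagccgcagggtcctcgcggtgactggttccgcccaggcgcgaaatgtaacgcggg

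Zfp784, whose stretch holds the Spdef-type core, read 50.1, 45.9 and 43.5 in Spdef -/- and 75.3, 84.4 and 80.2 in Spdef +/+ (difference -0.78 ± 0.09, SE, limma adjusted p = 0.00134). Over the whole windows the general core was in 38.3% of 81 members called lower, 37.4% of 123 not called and 22.2% of 9 called higher, beside 28.3% of the other tested genes and 15.2% of all genes with a window. The Spdef-type core was in 12.3% of members called lower, 15.4% of those not called and none of those called higher, beside 9.66% of the other tested genes and 5.96% of all genes with a window. Of the 10 largest falls 8 had a window, 4 with the general core and 0 with the Spdef-type core. Of the 10 largest rises 9 had a window, 2 with the general core and 0 with the Spdef-type core. The shares were close between members called lower and those not called, and no difference between these sets was tested. A Zfp143-type core, ACTACAA, was in 6.17% of members called lower, 5.69% of those not called and none called higher, beside 4.35% of the other tested genes and 3.45% of all. The median GC content was 54.3% in members called lower, 56.0% in those not called and 62.7% in the 9 called higher. It was 55.7% over all members with a window, beside 61.0% in the other tested genes. A match of letters is a description and shows no binding.

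The genes with which KRAB zinc finger proteins work were called in both directions. Of 27 tested KRAB repressor partners 3 fell (11.1%), beside 24.0 percent of all tested genes, and 5 rose (18.5%), beside 15.8 percent, with a median of 0.05. These shares were not tested against those of all genes. Trim28, the central corepressor, read 1891, 1961 and 2150 in Spdef -/- and 1762, 1677 and 1770 in Spdef +/+ and was not called (difference 0.20 ± 0.08, SE, limma adjusted p = 0.0926), and Setdb1 differed by 0.19 ± 0.09 (SE, limma adjusted p = 0.119). Atf7ip, which stabilises Setdb1, read 569.6, 586 and 679 in Spdef -/- and 1021, 1035 and 1037.5 in Spdef +/+ (difference -0.76 ± 0.09, SE, limma adjusted p = 0.00155). Tasor, of the HUSH silencing complex, read 319, 336 and 310.2 in Spdef -/- and 573, 562 and 527 in Spdef +/+ (difference -0.78 ± 0.08, SE, limma adjusted p = 0.000856). Both fell with no overlap between groups. Of the same complex as Tasor, Pphln1 rose (difference 0.52 ± 0.15, SE, limma adjusted p = 0.0361). Mphosph8, also of that complex, was not called (difference -0.13 ± 0.10, SE, limma adjusted p = 0.344). The members that rose included Uhrf1 and Dnmt1, which copy DNA methylation during replication, by 2.03 and 0.84 on the log2 scale.

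Of 16 genes for SUMO modification and Trim28 regulation 1 fell and 4 rose, among them Sae1, which helps to activate SUMO, higher by 0.55, and the SUMO protease Senp1, higher by 0.43, while the SUMO protease Senp7 fell by 0.35 on the log2 scale. Of 28 genes of RNA polymerase II and its general factors 1 fell (3.57%) and 4 rose (14.3%), beside the same 24.0 and 15.8 percent of all tested genes. The fall was Polr2e (-0.43), and the rises included Gtf2e2, Taf9 and Taf2 by 0.28 to 0.47. The list's median was -0.04, and the shares of both lists were not tested. Other zinc finger families were set beside the Zfp genes, with the same 24.0 percent lower and 15.8 percent higher over all tested genes. Of 12 Zkscan and Zscan genes, which encode C2H2 proteins with a SCAN domain, 7 were called lower and none higher, with a median of -0.39. Of 38 Zbtb genes 10 were called lower and none higher (median -0.13), of 15 Zc3h genes, with CCCH fingers, 3 lower and 2 higher (median 0.07), and of 18 Klf and Sp genes 4 lower and 3 higher (median -0.003). The differences between families were not tested.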

How the data were processed

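The deposited intensity values are linear dChip signals, which the authors made for every probe set of each array. The sources used here do not name the normalization, background correction or detection algorithm. The series matrix repeats them, with 0 values differing by over 0.01. The deposited table of the authors' comparison, whose limits per the file headers are a lower bound of the fold over 3, a difference over 20 and a p-value of at most 0.01, lists 153 probe sets, 0 of them of a Zfp gene. Of 45101 probe sets, 64 were controls. The rest took symbols by gene ID (36239), by the 1 of several IDs in the RefSeq table of GRCm38.p6 (609) or by accession (61). The tested genes had 1 symbol and were Present on at least 3 arrays. limma 3.58.1 (R 4.3.3) was fitted to log2 signals with group as the only term, 2-sided, and tested on simulated data. The number of arrays limits the precision. Replicate numbers do not pair the arrays by the labels. Named were, per direction, the 10 largest called differences with separate groups, 18 genes by role, and up to 4 called genes per list, besides the 2 brightest members inside and outside the detection filter. The members, lists and rules were chosen with earlier results of these data known. Trim28, Setdb1, Pphln1, Mphosph8, Zfp784, Zfp943, Zfp229 and Zfp74 were named after their values were seen. Grouping by protein domain was not run, as no protein sequences were used here. One gene that the naming rule picks is not reported here.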

Additional observations from a re-analysis of the deposited data

How the results depend on the processing

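The median log2 difference of the Zfp genes kept its sign under all alternatives run. It was -0.239 with no detection filter, -0.254 for genes Present on all 6 arrays, -0.236 with a mean log2 signal of at least 6, -0.238 after quantile normalization, -0.232 with arrays centred on their medians, -0.386 centred on bacterial controls, -0.231 with a pseudocount of 32, -0.336 with array weights and -0.248 over single probe sets. Members called lower numbered 61 of 332 with no filter (18.4%) and 41 of 260 centred on bacterial controls (15.8%). They numbered 59 of 260 by a plain t-test (22.7%) and 1 by a fold of at least 3 with p under 0.01. Members called higher numbered 6, 2, 6 and 0 under the same settings. With probe sets tested singly, 124 of 421 Zfp probe sets were called lower (29.5%) and 17 higher (4.04%). Over all tested genes, calls were 2004 lower (11.1%) and 1466 higher (8.1%) with no filter, 2156 (18.1%) and 1426 (12.0%) by the plain t-test, 1417 (11.9%) and 682 (5.73%) centred on bacterial controls, 4361 (20.1%) and 2908 (13.4%) over single probe sets, and 176 and 197 by the fold rule. Leaving out 1 array gave 51 to 99 members lower, 7 to 9 higher, medians of -0.318 to -0.266, and 1850 to 2734 genes lower and 1277 to 1825 higher over all genes. The share of Zfp genes called lower exceeded that of other genes in 100% of 4 bands, also by Spdef +/+ signal, and in 80% of 10 bands. In the brightest of the 4 bands by signal over all arrays the shares were nearly equal, 21.4% (3 of 14) beside 20.5%. With a replicate block 74 members were lower, beside 18.5% of all genes, and 7 higher, beside 12.4%, and same-numbered arrays deviated together at r of -0.09 to -0.013. Signs turned for Zfp668 with no filter (-0.15, another probe set then standing for it), Zfp91 under quantile normalization (0.008), median centring (0.036) and without Spdef +/+ replicate 2 (0.029, with -0.105 the other extreme when 1 array was left out), Zfp106 with the mean of probe sets (0.049), and Zfp384 centred on bacterial controls (-0.076) and without Spdef -/- replicate 3 (-0.023), Spdef +/+ replicate 1 (-0.002) or replicate 3 (-0.009; the highest without 1 array was 0.059). The cause was not tested. Leaving out probe sets of several gene IDs, or members on cross-binding probe sets, both chosen after seeing the data, left counts within 1.5 times.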
